A study of Drosophila melanogaster with 2 samples.

Results

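Sites of CG15696 were examined at 9 genes of the ecdysone response, EcR, usp, br, Eip74EF, Eip75B, Eip78C, ftz-f1, Hr38 and Hr39, out of 13945 protein-coding genes of Drosophila melanogaster. The genes were taken by name from the gene annotation on the dm6 assembly. A site was assigned to a gene when its summit lay in the gene body or within 5 kb of it, the stretch called the territory here, and 24 of 5354 reproducible sites met this rule. The binding data come from ChIP-seq, in which chromatin bound by a protein is precipitated and its DNA sequenced, and the protein was CG15696, which has a homeodomain. Both libraries came from whole embryos of both sexes aged 2 to 8 h, of 1 transgenic line that stably expresses CG15696 with green fluorescent protein (GFP) at its C-terminus, and an antibody against GFP was used. They form 1 group, as biological replicates 1 and 3. No group without the transgene is among these lists, the promoter that drives the fusion is not given, and no expression was measured. The reproducible set is the authors' list thresholded on the irreproducible discovery rate (IDR), and its sites ranked 1 to 5354 are also the strongest peaks called on both replicates together. The signal of a site is the authors' own value in that pooled call. The sources used here state neither its scale nor the read depth behind it.

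Ecdysone is the steroid hormone that times moulting and metamorphosis in insects, and in the embryo a pulse of it comes around mid-embryogenesis. It acts through a heterodimer of 2 nuclear receptors, EcR, which binds the hormone, and its partner usp, the fly RXR. The dimer induces a small set of early genes for transcription factors, which in turn act on later genes. Of the 9 genes, 7 encode nuclear receptors, while br encodes zinc finger proteins with a BTB domain and Eip74EF encodes ETS domain factors, so the name "nuclear receptor genes" does not cover all of them. Several have alternative promoters, and together they had 30 annotated transcription start sites once starts within 100 bp of each other were joined. The genes are long. Their bodies ran from 3.51 kb at usp to 113.7 kb at Eip75B, with a median of 50.7 kb against 2.17 kb for all protein-coding genes. EcR lies on arm 2R, usp and br on X, Hr38 and Hr39 on 2L, and the other 4 genes on 3L.

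Eip75B held 8 of the 24 sites and EcR held 5, while Eip78C and Hr38 held none. Eip74EF had 3 sites, and usp, br, ftz-f1 and Hr39 had 2 each. A site was thus found for 7 of the 9 genes, beside 50.8% of all protein-coding genes by the same rule, and long genes have more room for one. Per length the genes lay close to the genome, with 4.12 sites per 100 kb of territory against 4.0 per 100 kb of the chromosome arms, and 3.48 without Eip75B. By signal the sites were not clearly set apart from the whole set. The median signal was 222 (range 138 to 1532) against 259 over the whole set (quartiles 176 and 462). Of the 24 sites, 10 (41.7%, Wilson interval 24.5 to 61.2%) were among the stronger 2677. The interval includes the share that these 2677 make up of the 5354 sites. Of these 10 sites, Eip75B held 6, EcR 2, and usp and br 1 each.

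**Figure D1:**
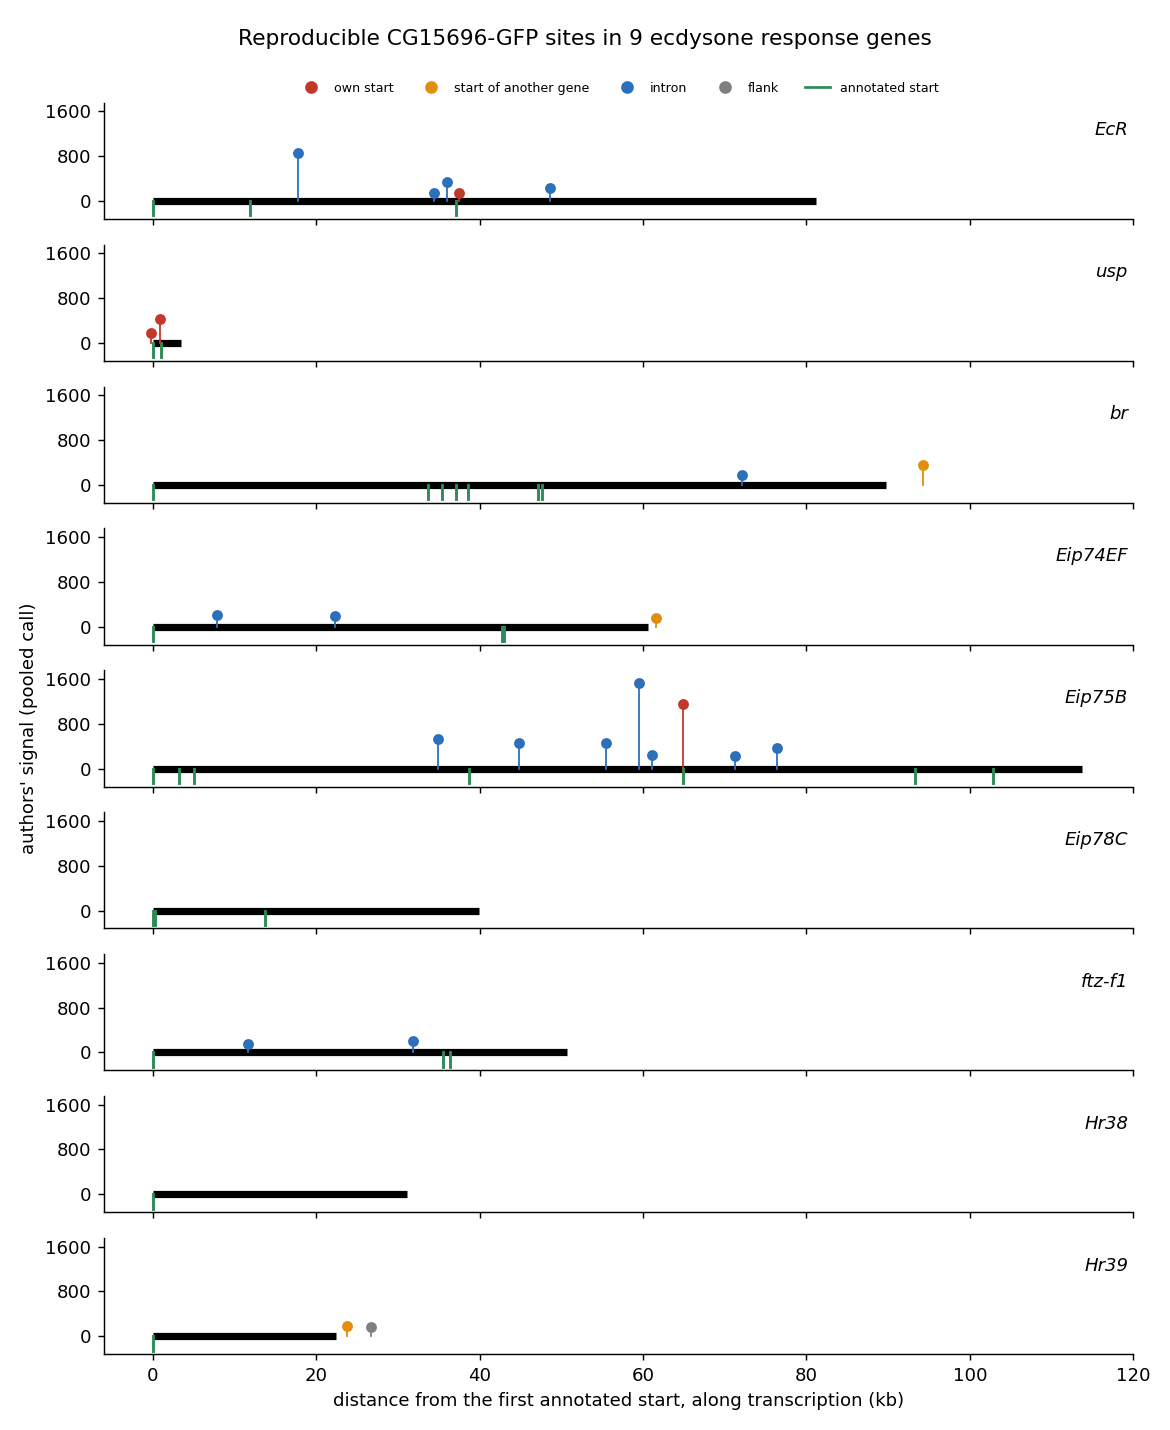
Gene maps with the gene body as a black bar, annotated starts as green ticks and each reproducible site as a stem whose height is the authors' signal in the pooled call. The horizontal axis gives the distance in kb from the first annotated start along transcription. The 8 sites of Eip75B lie in the middle of the gene, and the bars of Eip78C and Hr38 carry none.

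The sites lay mainly in introns. Of the 24, 16 (66.7%, 95% Wilson interval 46.7 to 82.0%) were intronic and over 500 bp from any protein-coding start, against 33.3% of the whole set by the same rule. Only 4 (16.7%) lay within 500 bp of a start of the gene itself, 2 at usp, 1 at EcR and 1 at Eip75B. Another 3 lay at the start of a neighbouring gene, and 1 lay in the flank of Hr39. Counting starts of any protein-coding gene, 7 of the 24 sites (29.2%, 14.9 to 49.2%) lay within 500 bp of one, against 41.9% (40.6 to 43.3%) of the whole set. Of the 30 starts, 4 (13.3%) had a site within 500 bp, beside 18.8% of the 18922 joined starts of all protein-coding genes. By gene, 3 of 9 had a site at an own start, beside 21.4% of all protein-coding genes. These intervals cover counting error only, and sites of 1 gene are not independent of each other. The 24 sites were taken in or within 5 kb of these genes, whose bodies made up 493 of 583 kb of territory. The whole set has no such limit, so the shares of sites by position compare unlike sets, and genes of like length were not compared.

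EcR (FBgn0000546, positions 6087873 to 6169087), the hormone receptor gene on the minus strand, had 5 sites along 81.2 kb, all of them in the body. Its transcripts begin at 3 separate starts, of EcR-RA, of EcR-RD and EcR-RE, and of EcR-RB, EcR-RC and EcR-RG. The strongest site (positions 6151084 to 6151526, rank 538, signal 856) lay in an intron, 5834 bp downstream of the second start. Its signal was 194 in replicate 1 (rank 1149) and 665 in replicate 3 (rank 379). Another 3 sites lay around the third start. A site of rank 2015 (signal 332) lay 1185 bp upstream of it. One of rank 5217 (signal 138) lay 2694 bp upstream of it and slightly nearer, at 2687 bp, to the start of CG14589. One of rank 5162 (signal 139) lay 294 bp downstream of the third start, in the 5' UTR of its transcripts. The last site (rank 3145, signal 222) was 11368 bp downstream of the same start, in an intron of all 6 transcripts. The strongest of the 5 leaned most to replicate 3 (log2 ratio 1.78), and the weakest, with a signal of 83.7 in replicate 1 and 41.1 in replicate 3, leaned most to replicate 1 (log2 ratio -1.03). Counts of 5 or more sites occurred at 1.72% of protein-coding genes, but for the 133 genes of at least 80 kb, EcR among them, the quartiles were 0 and 6 sites, so 5 is within their middle range. From replicate 3 alone EcR had 3 sites and from replicate 1 alone 8, each time among the 5354 strongest peaks of that replicate.

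The start of EcR-RA had no reproducible site. The nearest pooled peak lay 352 bp away and ranked 9686 of 30000. The start of EcR-RD and EcR-RE had a pooled peak 278 bp away, of rank 16553. So all 3 starts of EcR had a peak in the full pooled list, but that list goes down to weakly supported peaks, and 49.5% of all joined starts have one. Of the 30 starts of the 9 genes, 10 (33.3%) did.

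The usp gene (FBgn0003964, X from 2038798 to 2042311, minus strand), which encodes the partner of EcR, was the shortest of the 9 and had a site at each of its starts. The stronger site, on X from 2041366 to 2041573 (rank 1528, signal 417), had its summit 144 bp upstream of the start of usp-RA, in the intron of usp-RB. Its signal was 130 in replicate 1 and 278 in replicate 3. The weaker site, from 2042288 to 2042691 (rank 4113, signal 172), had its summit 179 bp upstream of the start of usp-RB, a position at which Actn, the alpha-actinin gene, also begins. It read 65.8 in replicate 1 and 107 in replicate 3. The stronger site lies inside Actn as well and 412 bp from the start of CG4313, so its assignment to usp rests on distance alone. The weaker one lies inside CG4313 and as near to the start of Actn as to that of usp, so distance does not separate these 2 genes. Both were higher in replicate 3, as were most sites of the set. The bases at both summits are shown because they lie directly upstream of the starts of usp. They are read 5′ to 3′ on the plus strand of dm6, and capitals mark matches to any of the 13 motifs searched. The first was cut where an annotated UTR begins.
usp-RA upstream, chrX:2041406-2041460: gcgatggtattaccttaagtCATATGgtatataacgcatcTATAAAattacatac
usp-RB upstream, chrX:2042440-2042540: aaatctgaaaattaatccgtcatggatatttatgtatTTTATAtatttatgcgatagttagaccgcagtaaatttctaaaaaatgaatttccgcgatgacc
The first holds the E-box CATATG at bases 21 to 26 and TATAAA at bases 41 to 46. The second holds TATAAA at bases 38 to 43, on the minus strand.

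Eip75B (FBgn0000568, minus strand), the early gene for the E75 nuclear receptors, had the largest number and the strongest sites of the 9. Counts of 8 or more sites occurred at 49 of 13945 protein-coding genes (0.351%). The gene is also very long, and among the 133 genes of at least 80 kb the median was 2 sites (quartiles 0 and 6), with 8 or more at 16.5%. The 8 sites spanned 41.4 kb, or 36.4% of the gene body on 3L from 17950953 to 18064696. The gene has 7 annotated starts. The sites began 3755 bp upstream of the fourth start, that of Eip75B-RG, and ended 11.5 kb downstream of the fifth, that of Eip75B-RC. Neighbouring summits were 1661 to 10626 bp apart, with a median of 5141 bp. Only the start of Eip75B-RC had a reproducible site within 500 bp, and the other 6 starts, those of Eip75B-RF, -RE, -RB, -RG, -RA and -RD, had none.

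The strongest site (from 18005001 to 18005444, rank 178, signal 1532) lay in an intron, 5394 bp upstream of the start of Eip75B-RC. It ranked 197 in replicate 1 and 174 in replicate 3, with signals of 508 and 1024. The next (from 17999605 to 17999962, rank 317, signal 1143) lay at the start of Eip75B-RC itself, with the summit 33 bp inside the transcript. It ranked 264 and 367, with signals of 453 in replicate 1 and 689 in replicate 3. These 2 sites were thus near the top of every list. Bases at both are shown because these were the strongest sites of the 9 genes, read on the plus strand at the first summit and, for the second, over the 100 bases upstream of the start of Eip75B-RC on the minus strand, in the direction of transcription.
Eip75B intron, chr3L:18005165-18005265: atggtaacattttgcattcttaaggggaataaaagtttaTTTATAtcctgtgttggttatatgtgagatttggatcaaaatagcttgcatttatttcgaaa
Eip75B-RC upstream, chr3L:17999822-17999921: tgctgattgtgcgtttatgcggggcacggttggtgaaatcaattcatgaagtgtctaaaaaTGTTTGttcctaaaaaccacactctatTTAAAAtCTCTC
The intronic window had a GC content of 28.7% and held TATAAA on the minus strand at bases 40 to 45. In the sequence upstream of Eip75B-RC, CAAACA lay on the opposite strand at bases 62 to 67, TTAAAA at bases 89 to 94 and GAGAG, on the opposite strand, at bases 96 to 100, directly before the start.

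The other 6 sites of Eip75B lay in introns. Around the start of Eip75B-RG, one lay 3755 bp upstream (rank 1159, signal 523) and one 6217 bp downstream (rank 1365, signal 456). Around the start of Eip75B-RC, sites lay 9368 bp upstream (rank 1337, signal 462), 3733 bp upstream (rank 2942, signal 238), 6330 bp downstream (rank 3159, signal 221) and 11471 bp downstream (rank 1822, signal 362). The weakest of the 8, of rank 2942 and 3159, were the nearest intronic sites on either side of the start of Eip75B-RC. All 8 sites had a partner within 100 bp in both replicates, at ranks from 197 to 3502 in replicate 1 and from 174 to 3407 in replicate 3. Every one had the higher signal in replicate 3, by log2 ratios of 0.03 to 1.01. The median ratio over the matched sites of the whole set was 0.69 (quartiles 0.23 and 1.09). The lowest ratios were those of the pair around the start of Eip75B-RG, 0.03 for the upstream and 0.16 for the downstream site. Both lay below the lower quartile of the whole set. By rank both stood higher in replicate 1 (742 and 976) than in replicate 3 (1533 and 1691). Among the 5354 strongest peaks of replicate 3 the gene had the same number of sites, 8, and among those of replicate 1 it had 13. The pooled list of 30000 held 49 peaks in the territory. One of rank 5400 (signal 133), 1523 bp from the start of Eip75B-RF, fell just short of the reproducible set.

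**Figure D2:**
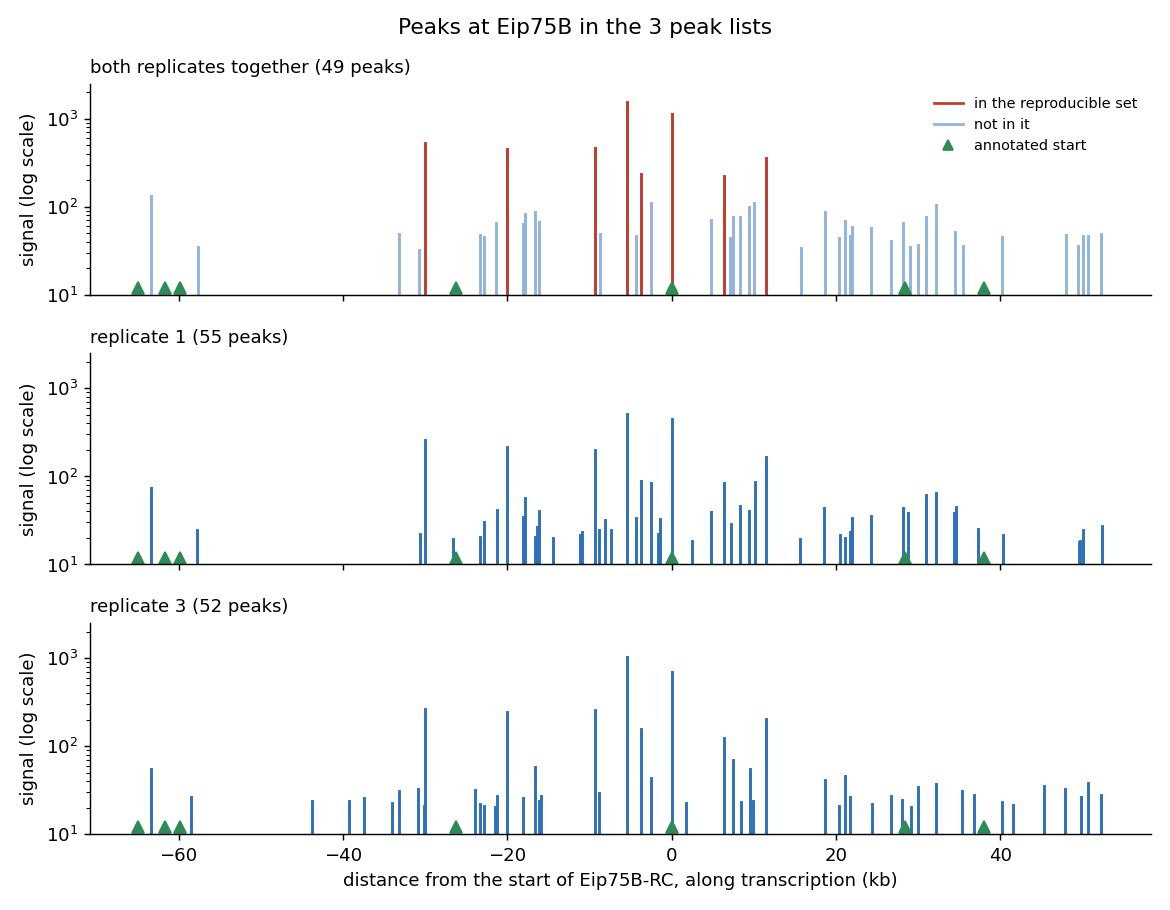
Peaks at Eip75B called on both replicates together, on replicate 1 and on replicate 3, with the authors' signal on a log scale against the distance in kb from the start of Eip75B-RC along transcription. Triangles mark the 7 annotated starts. The 8 reproducible sites, at 221 to 1532, have peaks in both replicates, which the IDR selection favours. The highest other pooled peak is at 133, below the lowest signal of the reproducible set by construction.

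The early genes br and Eip74EF had weaker sites, none at an own start. The br gene (FBgn0283451, X from 1575132 to 1664869, plus strand) encodes the Broad zinc finger proteins, which direct the onset of metamorphosis. It has 7 annotated starts over 89.7 kb, and no pooled peak lay within 3452 bp of any of them. Its territory held 8 pooled peaks, or 0.802 per 10 kb against 2.24 per 10 kb of the arms, with 5 peaks in replicate 1 and 8 in replicate 3. This was the lowest density of the 9 genes in the pooled list and in replicate 3 (0.802 per 10 kb), while in replicate 1 Hr38 (0.486) was slightly below br (0.501). The intronic br site (on X from 1647028 to 1647431, rank 4282, signal 165) lay 24498 bp downstream of the nearest br start and also inside the gene Mur2B. The start of another gene, dor, was nearer, at 17822 bp. The intronic site was higher in replicate 1 (signal 108) than in replicate 3 (signal 55.0). The second site (rank 1873, signal 354) lay 4530 bp past the end of br, at 102 bp from the start of the neighbour CG3740. In replicate 1 its nearest summit was 107 bp away (signal 83.9), just outside the distance for a partner, and in replicate 3 it was 5 bp away (signal 281).

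Eip74EF (FBgn0000567, 3L from 17558672 to 17619325, minus strand) encodes the E74 proteins, ETS domain factors of the early response. Sites of rank 3519 (signal 199) and 3690 (signal 192) lay in introns, 7907 bp downstream of the first start and 20424 bp upstream of the second. Their signals were 65.8 and 74.0 in replicate 1 and 134 and 118 in replicate 3, so both were higher in replicate 3. The third site (rank 4878, signal 146) lay 959 bp beyond the gene and 75 bp from the start of CycT, the gene for cyclin T, a subunit of a transcription elongation kinase. It read 74.1 in replicate 1 and 63.6 in replicate 3. At the first start of Eip74EF the nearest pooled peak was 534 bp away, of rank 9496.

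The ftz-f1 gene (FBgn0001078, 3L from 18750607 to 18801309, minus strand), which encodes an orphan nuclear receptor known as a competence factor for later ecdysone pulses and, in the early embryo, as a partner of the segmentation protein Ftz, had 2 intronic sites. One (on 3L from 18769243 to 18769646, rank 3568, signal 197) lay 3701 bp upstream of the start shared by ftz-f1-RC and ftz-f1-RD. Its signals were 84.8 in replicate 1 and 114 in replicate 3. The other (rank 5036, signal 142) lay 11666 bp downstream of the start of ftz-f1-RB, inside a non-coding gene, and its nearest summit in replicate 3 was 157 bp away. None of the 3 starts had a reproducible site within 500 bp. The full pooled list had a peak 46 bp from the start of ftz-f1-RB (rank 11750) and one 244 bp from that of ftz-f1-RC and ftz-f1-RD (rank 15942). The bases at the strongest summits of br, Eip74EF and ftz-f1 follow, on the plus strand, to set beside those of Eip75B and usp.
br downstream, at the CG3740 start, chrX:1669349-1669449: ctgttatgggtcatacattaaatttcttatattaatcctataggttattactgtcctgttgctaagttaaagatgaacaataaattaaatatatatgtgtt
Eip74EF intron, chr3L:17611368-17611468: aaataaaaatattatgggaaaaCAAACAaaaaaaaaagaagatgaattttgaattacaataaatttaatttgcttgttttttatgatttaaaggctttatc
ftz-f1 intron, chr3L:18769395-18769495: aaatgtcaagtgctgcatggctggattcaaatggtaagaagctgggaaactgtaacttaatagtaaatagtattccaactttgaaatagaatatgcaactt
The Eip74EF window had the lowest GC content of the 24, 17.8%, and CAAACA at bases 23 to 28. The windows at br (24.8% GC) and ftz-f1 (33.7% GC) held none of the 13 motifs.

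Hr39 (FBgn0261239, 2L from 21237250 to 21259675, plus strand), whose product is an orphan nuclear receptor related to Ftz-F1, had its 2 sites beyond the end of the gene. One (rank 3866, signal 183) was 1376 bp past the end, at 117 bp from the start of l(2)k14505, and read 91.0 in replicate 1 and 95.9 in replicate 3. The other (rank 4147, signal 170) was 4288 bp past the end, 1007 bp from the start of CG8671 and inside that gene. It read 55.1 in replicate 1 and 128 in replicate 3. The log2 ratios of the pair were 0.08 and 1.22, beside a median of 0.69 for the whole set (quartiles 0.23 and 1.09). By rank the first stood higher in replicate 1 (3164 against 4350) and the second in replicate 3 (3309 against 6152). The single start of Hr39, used by all 4 transcripts, had a peak 71 bp away that ranked 5689 in the pooled list (signal 127), not far below the last reproducible site. The nearest summits in the replicates were 108 bp from the start (rank 4681 in replicate 1) and 17 bp from it (rank 6609 in replicate 3).

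Eip78C and Hr38 had no reproducible site within 5 kb, nor within 10 kb, and none among the 5354 strongest peaks of either replicate. Eip78C (FBgn0004865, 3L from 21226609 to 21266503, plus strand) encodes E78, an early-late nuclear receptor related to E75, and Hr38 (FBgn0014859, 2L from 20683462 to 20714588, minus strand) encodes the fly member of the NR4A receptors, which can pair with usp. The best peak at Eip78C ranked 5743 in the pooled list (signal 126), lay in the body 13497 bp from the nearest start, and had partners in both replicates of rank 5585 (signal 59.2) and 6012 (signal 68.6). It was thus close to the reproducible set. The best peak at Hr38 ranked 8191 (signal 89.1), with partners of rank 12093 (signal 33.7) and 7945 (signal 51.4), and lay past the end of the gene, 32.7 kb from the start of a body of 31.1 kb. Long genes without a site were common: of the 663 genes of at least 30 kb, 32.7% had none. A peak below the reproducible set is not shown to be absent binding, since the depth is not known.

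**Figure D3:**
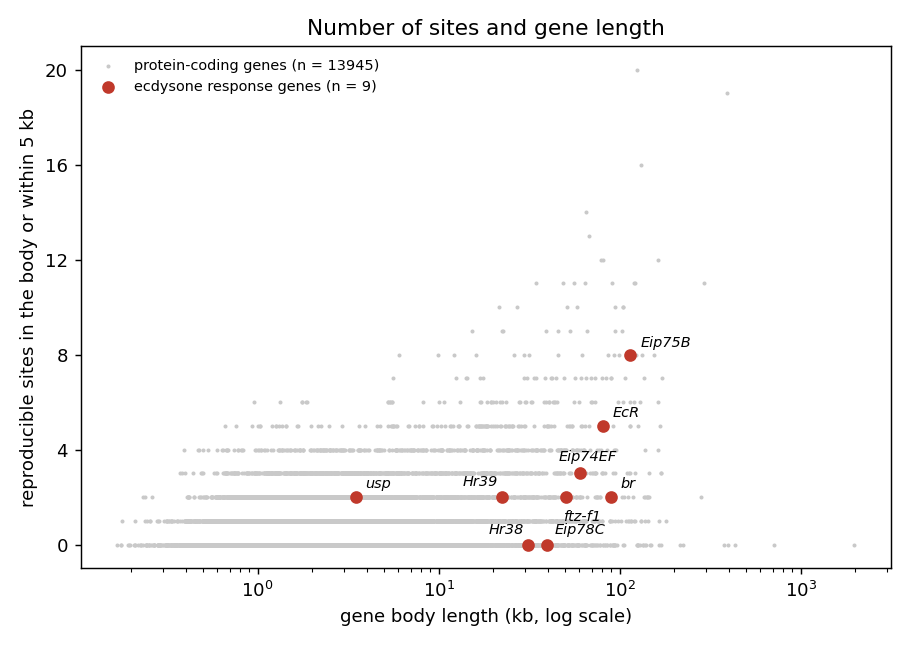
Number of reproducible sites in the body or within 5 kb against the length of the gene body in kb on a log scale, for 13945 protein-coding genes in grey and the 9 genes in red. Eip75B, with 8 sites, stands above the other 8, and Eip78C and Hr38 are at 0.

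Most sites had a peak in both replicates, with higher signal in replicate 3. Of the 24 sites, 22 (91.7%, 74.2 to 97.7%) had a summit within 100 bp in the full lists of both replicates, against 94.3% of the 5354. The IDR list was thresholded on agreement between these same replicates, and partners were sought in lists of 30000 peaks. A high share was thus built in. Signal was higher in replicate 3 at 19 of the 22 matched sites, and at 4197 of the 5049 matched sites of the whole set. The median log2 ratio of replicate 3 to replicate 1 was 0.48 (range -1.03 to 1.78) beside 0.69 for the whole set (quartiles 0.23 and 1.09). The exceptions, higher in replicate 1, were the weakest EcR site, the intronic br site and the Eip74EF site at the CycT start. The signals of the 22 sites in both replicates had a Spearman correlation of 0.727, and 0.721 over the 5049. Without Eip75B it was 0.314 over 14 sites. These correlations describe sites of the same 2 libraries, called against 1 shared control, and carry no p-value.

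**Figure D4:**
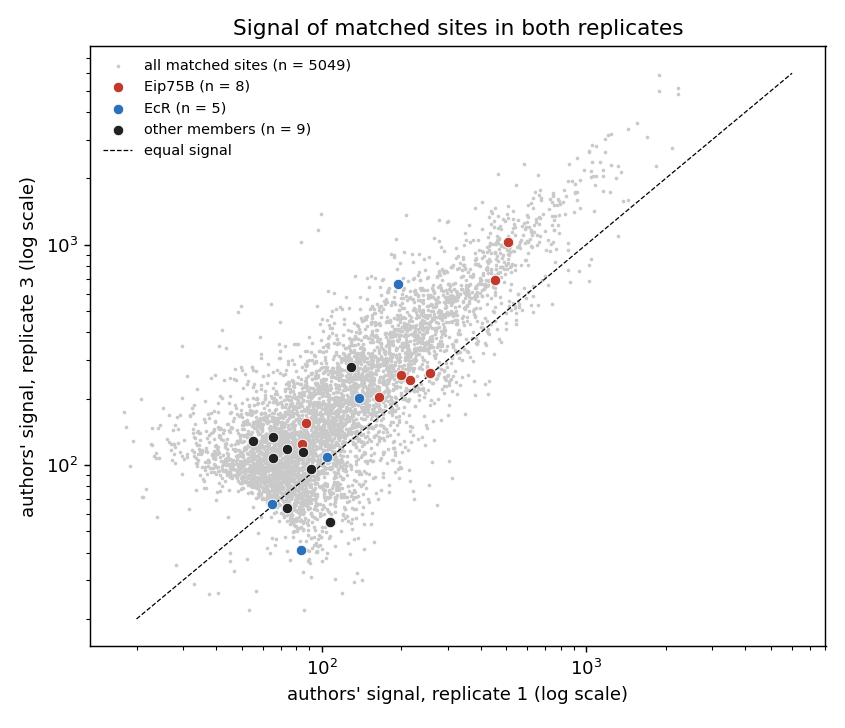
The authors' signal of each matched site in replicate 3 against replicate 1, both on log scales, for all 5049 matched sites in grey and for the 22 matched sites of the 9 genes in colour. Most points lie above the dashed line of equal signal, and the 8 Eip75B sites reach 508 in replicate 1 and 1024 in replicate 3.

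Homeodomain motifs were found at 3 of these summits and the receptor motifs at none. Each motif was searched on both strands within 50 bp of the summit. TAATTA was found at 1 of the 24 sites, the usp-RA site, in a stretch not printed above (4.17%), against 10.6% of the whole set. This share rests on few sites: it was 10% of the 20 sites had without replicate 1 and 9.09% of the 33 had without replicate 3. Those sites come from the list of 1 replicate, for which no share over all sites is given here. TAATTG was found at 1 site, of Eip74EF (10.9% of the whole set). The form TAATGG was at 1 further site, beside the CycT start (4.65% of the whole set). Finally, TAATGA was at none, against 7.86%. Together these 4 homeodomain motifs were found at 3 sites (12.5%, 95% Wilson interval 4.34 to 31.0%), against 30.2% (28.9 to 31.4%) of the whole set, and at none of the 8 Eip75B sites. The core AGGTCA of nuclear receptor sites was found at none of the 24, which allows a share of up to 12.5% (3 counts of 24, with a Wilson upper limit of 13.8%), and at 1.74% of the whole set. The longer form AAGGTCA, the type of site bound by Ftz-F1, contains AGGTCA, so every match of it is also one of the shorter motif, and it was at none of the 24 and at 0.542% of the whole set. No match in these windows says nothing on whether a factor binds there.

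The remaining motifs were found at shares whose intervals included those of the whole set, except for GAGAG repeats. The motif TATAAA was at 6 sites (25%, against 24.3% of the set), TTAAAA at 7 (29.2% against 32.6%), CAAACA at 4 (16.7% against 15.0%) and the E-box CATATG at 2 (8.33% against 5.10%). GAGAG, a core of GAGA factor sites, was at 5 sites (20.8%, interval 9.24 to 40.5%, against 8.61%, interval 7.89 to 9.39%). These 5 were the EcR sites of rank 5217 and 5162, the Eip75B sites of rank 317 and 3159 and the Hr39 site of rank 4147. GAGAG was 1 of 13 motifs searched, the intervals overlap, and sites of 1 gene are not independent. The difference was not tested. TATCGATA, the DREF motif, and CAGGTAG, the Zelda motif, were at none of the 24, and at 1.16% and 0.374% of the set. None of the 13 motifs was found at 7 of the 24 sites (29.2%) and at 1336 of the 5354. The median GC content of the windows was 33.2% (range 17.8 to 53.5%) against 31.7% for the set.

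Other genes of the hormone pathway had sites in varying numbers. Of 14 further nuclear receptor genes, 12 had a site in their territory, 5 of them at an own start, beside 50.8% and 21.4% of all protein-coding genes. For some of the 12 the only site lay nearest to the start of another gene, such as 18 bp from it and 17724 bp from the own start. Gene length was not matched in this comparison. Hr4, an early-late receptor gene, had 9 sites, the strongest of rank 182 (signal 1521), 5807 bp from its nearest start, and its body is 66.0 kb long. Hr3, which encodes a receptor that activates ftz-f1, had 4, the strongest of rank 330 (signal 1119). That site lay 7861 bp from the Hr3 start and as far from that of CG46321. The others with the strongest sites were Hr96 and ERR, both at an own start. That of Hr96 (rank 455, signal 939) lay 124 bp from the Hr96 start and 94 bp from that of EMC6. That of ERR (rank 1009, signal 574) lay 123 bp from the ERR start and 63 bp from that of Atg18a. The receptor genes tll and svp had none.

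Of 13 matched genes of ecdysone synthesis, turnover and transport, 7 had a site, and 1 of them, Oatp74D, at an own start, beside 50.8% and 21.4% of all protein-coding genes. Oatp74D, known as the ecdysone importer, held 4 sites, the strongest of rank 327 (signal 1128) nearest to the start of CG6333. The sites of the enzyme genes sad (rank 425, signal 974) and sro (rank 877, signal 630) lay at the starts of their neighbours CG6962 and Drice. The enzyme gene shd had 5 sites within 5 kb, none in its body, the strongest of rank 1536 (signal 416). The enzyme genes spo, spok, Cyp6t3, dib and Cyp18a1 had none, nor did ouib.

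Of 21 other ecdysone targets and partners, 12 had a site (57.1%) and 5 had one at an own start, near the 50.8% and 21.4% of all protein-coding genes. The strongest were at ImpL2, which encodes a secreted binding protein for insulin-like peptides (4 sites, rank 75, signal 2163), and at Eip71CD, annotated as MsrA (rank 93, signal 1920, at the start of CG7841). The strongest ImpL2 site lay 3222 bp from a start of ImpL2 and as far from that of CG46460. The next were at tai, which encodes a coactivator of EcR (5 sites, rank 551, signal 848, 154 bp from a start of tai and 110 bp from that of CG9586), and at Eip63E (4 sites, rank 874, signal 632). The 9 without a site were Eip93F, ImpE1, ImpE2, ImpL1, Met, Blimp-1, Edg78E, Edg84A and Edg91.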

How the data were processed

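Peak lists on dm6 were used, per the labels. The authors called peaks on each replicate and on both together, each time against 1 control alignment, and derived the IDR list from these, per the notes deposited with the samples. The sources used here do not state the caller, its settings, the IDR threshold or the depth. Each deposited peak has the authors' signal score, used to rank and describe it, and a −log10 q value from the authors that reaches a ceiling near 4 and falls to 0.114 in the pooled list. The authors' value for the summit offset was added to the peak start. Ranks are by score within a list. Replicate and pooled lists held 30000 peaks each.

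Genes and starts came from Ensembl release 115 and bases from the RefSeq copy of Release 6, and no peak ran past the end of an arm there. Starts of all annotated transcripts within 100 bp were joined. A replicate partner is the nearest summit within 100 bp. There is 1 group of 2 samples, so no test between groups was made and values are descriptions. Shares carry 95% Wilson intervals. Sites were counted with Python 3.11.15, pandas 2.3.3 and scipy 1.17.1, and the assignment was tested on simulated data. The members and lists were chosen with earlier results of these data known. One listed gene, phm, had no match and was left out, and Eip71CD and Eip55E were matched through synonyms. Genes named are the members, genes at or around their sites, and up to 4 genes of each list with the strongest sites; the genes with no site and the sequences at the Eip75B-RC and usp-RB starts were chosen after their values were seen.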

Additional observations from a re-analysis of the deposited data

How the results depend on the processing

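The 24 sites, 7 genes with a site and 4 sites at an own start came to 19, 6 and 3 with gene bodies alone, and to 18, 5 and 4 with sites assigned to the nearest protein-coding start. Among the stronger 2677 sites they were 10, 4 and 2, as fewer sites enter. Down to rank 10708 of the pooled list they were 59, 9 and 6, with 20 at Eip75B, 14 at EcR and 1 each at Eip78C and Hr38. Without replicate 1 or without replicate 3 the sites numbered 20 and 33, the genes 7 and 7, and the sites at an own start 3 and 5. The share of sites in both replicates was 100% with partners within 200 bp, and 70.8% with the 5354 strongest peaks of each replicate in place of the full lists. The share and the log2 ratio between replicates cannot be had from 1 replicate. The median log2 ratio ran from 0.23 to 0.55 and the TAATTA share from 4.17% to 11.9% over their alternatives. No paired analysis was possible because the samples form 1 group. The read depth is unknown, so no limit on weak sites could be set.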
